A study of Mus musculus with 12 samples.

Results

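The genes described here make the folding machinery of the endoplasmic reticulum (ER) and its Xbp1-controlled part of the unfolded protein response (UPR): Hspa5, Hsp90b1, Calr, Canx, Pdia3, Pdia4, Pdia6, Xbp1, Dnajb9 and Herpud1. They were taken by name, without regard to their values, and all 10 had a row among the 24255 genes of the expression table. Of these 10, 9 reached 1 FPKM (fragments per kilobase of transcript, relative to the mapped fragments of a library) in at least 1 library, as did 11233 genes in all. Herpud1 reached it only in MUT libraries and had to be higher there, so it is given by its values with no test, which left 8 genes tested. Xbp1 did not reach that level and was also described without a test.

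RNA-Seq was carried out on mouse oocytes of 4 groups with 3 libraries each, every library made from 20 oocytes. All groups were labelled C57BL/6 and 3 weeks old, and all females had received PMSG, a gonadotropin that drives follicle growth, at 5 IU per mouse 46 h before collection. WT oocytes came from wild-type mice. MUT oocytes came from mice with the ENU-induced D166G change in DPAGT1, the enzyme that starts assembly of the lipid-linked sugar used for protein N-glycosylation, so that the granulosa cells around these oocytes carried the mutation as well. GcKO oocytes (Dpagt1F/F Gdf9CRE/+) had lost the floxed gene through a Cre active in oocytes from the primordial follicle stage. AmcKO oocytes (Dpagt1F/F Amhr2CRE/+) came from mice whose Cre acts in granulosa cells, so the oocytes themselves were not its target. A group with the floxed alleles and no Cre was not analysed here. The labels do not say whether the libraries of a group came from separate mice, and p-values measure the spread between these libraries only. MUT and GcKO libraries were numbered 1 to 3 and WT and AmcKO libraries 4 to 6. A difference between these sets of numbers cannot be told apart from the Dpagt1 state of the oocytes.

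Newly made glycoproteins enter the ER with an N-glycan attached. The lectin chaperones calnexin (Canx, in the membrane) and calreticulin (Calr, in the lumen) hold glycoproteins whose glycan carries a single remaining glucose and pass them to the disulfide isomerase Pdia3. BiP (Hspa5) and GRP94 (Hsp90b1) bind exposed protein segments whether or not a glycan is present. When unfolded protein accumulates, the sensor IRE1 splices the Xbp1 mRNA, and the resulting transcription factor, with ATF6, raises the transcription of chaperones, disulfide isomerases, the BiP co-chaperone Dnajb9 and the degradation factor Herpud1. Gene-level FPKM values do not separate spliced from unspliced Xbp1.

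Some genes of this pathway carry a regulatory sequence named after the ER stress response. The genes were chosen as members of that response, so its presence in their windows is a description and not a test. The ER stress response element (ERSE) is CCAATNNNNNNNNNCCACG, and it was searched on both strands of the RefSeq promoter windows (GRCm38.p6, 250 bases before to 50 after the start site). It was present in 5 of the 10 windows of these genes and in 0.119% of all 32851 windows. The short form ERSE-II, which is ATTGG and CCACG with 1 base of any kind between them, lay in the Herpud1 window and in 0.0365% of all windows. The ATF6/XBP1 core TGACGTG lay in the Hspa5 window and in 2.01% of all windows. None of these motifs was in the windows of Pdia3, Pdia4, Xbp1 or Dnajb9, which says only that these letters are not in those windows. The matches are printed 5′ to 3′ on the gene's own strand with 10 bases on each side. They are shown because Hspa5 and Canx carry the same element and behaved differently in the libraries, and capitals mark the fixed letters of each motif.
Hspa5 ERSE, chr2:34772015-34772053, plus strand: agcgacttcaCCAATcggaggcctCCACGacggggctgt
Canx ERSE, chr11:50325790-50325828, minus strand: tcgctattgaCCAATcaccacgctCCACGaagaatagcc
Pdia6 ERSE, chr12:17266481-17266519, plus strand: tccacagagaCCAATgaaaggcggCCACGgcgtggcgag
Calr ERSE in reverse orientation, chr8:84847065-84847103, minus strand: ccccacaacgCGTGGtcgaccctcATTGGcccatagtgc
Hsp90b1 ERSE in reverse orientation, chr10:86705523-86705561, minus strand: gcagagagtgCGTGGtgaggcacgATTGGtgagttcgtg
Herpud1 ERSE-II, chr8:94386367-94386397, plus strand: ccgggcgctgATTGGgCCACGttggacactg
Hspa5 TGACGTG core, chr2:34771923-34771949, plus strand: ggcgtagcaaTGACGTGagttgcggag
A second ERSE of Hsp90b1 lay further upstream, at chr10:86705628-86705666.

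The 4 groups differed in the total of the FPKM values, and this bears on every fold change. Summed over all genes, the WT libraries held 1167362 to 1226005, the AmcKO libraries 883256 to 1107925, the MUT libraries 589617 to 611597 and the GcKO libraries 482314 to 684212. The deposited scale was used throughout. Bringing every library to the same FPKM sum moved the median log2 difference of all genes tested from 0.12 to 0.68 in MUT against WT and from 0.12 to 0.71 in GcKO against WT, so changes under that scaling are read against those medians. The split of all calls moved with it, from 1063 higher and 1269 lower to 4667 higher and 248 lower in MUT against WT. It moved from 978 and 1286 to 4796 and 237 in GcKO against WT. One fragment was worth 2.29 to 2.66 times as much FPKM in the WT libraries as in MUT library 2, against 1.00 to 1.21 times in MUT, 0.902 to 1.50 times in GcKO and 1.21 to 1.50 times in AmcKO, so low genes were seen least well in WT. Dpagt1 itself was listed at 0 in all WT and AmcKO libraries, at 0.878, 0.408 and 0.985 FPKM in MUT and at 0, 0.366 and 0 FPKM in GcKO, and could not serve to check the labels at this depth.

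Canx was lower in MUT and GcKO oocytes than in WT and AmcKO oocytes. It stood at 400.4, 382.0 and 338.3 FPKM in the WT libraries. AmcKO had 467.5, 450.1 and 401.7 FPKM. In MUT it was at 157.5, 141.3 and 128.9 FPKM, and in GcKO at 95.6, 117.2 and 136.4 FPKM. All 6 MUT and GcKO libraries lay below all 6 WT and AmcKO libraries, which 6.65% of all genes tested did as well, while MUT and GcKO overlapped each other. In the limma fit on log2(FPKM + 1) over all 12 libraries, with Benjamini-Hochberg adjustment over the 11233 genes, the Canx difference was -1.39 (SE 0.157, adjusted p = 0.00011) in MUT against WT, 2.61 times lower on the FPKM + 1 scale. It was -1.68 (adjusted p = 3.9e-05, 3.21 times lower) in GcKO against WT. It was -1.92 (adjusted p = 4.9e-05) in GcKO against AmcKO and -1.62 (adjusted p = 9.1e-05) in MUT against AmcKO. GcKO against MUT gave -0.30 (95% interval -0.64 to 0.04, adjusted p = 0.82), and AmcKO against WT gave 0.24 (95% interval -0.10 to 0.57, adjusted p = 0.49) even though every AmcKO library exceeded every WT library.

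Abundant transcripts as a class were also lower in MUT and GcKO. Of the 471 tested genes with a mean within a factor of 2 of that of Canx (134 to 536 FPKM), 64.5% were called lower in MUT against WT, with a median log2 difference of -0.77, and 67.3% in GcKO against WT, with a median of -0.81. After a loess correction for mean abundance, chosen after seeing the data, Canx was at -0.71 in MUT against WT and -0.95 in GcKO against WT. With equal FPKM sums it was at -0.39 and -0.65, where the medians of all genes were 0.68 and 0.71. Canx was called lower in these 2 comparisons under each of 15 alternatives, with adjusted p from 4.2e-05 to 0.0188 in MUT and from 1.8e-05 to 0.0014 in GcKO. FPKM is relative to the mapped fragments of a library. Less Canx mRNA per oocyte and more of the other mRNA therefore cannot be told apart.

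**Figure D1:**
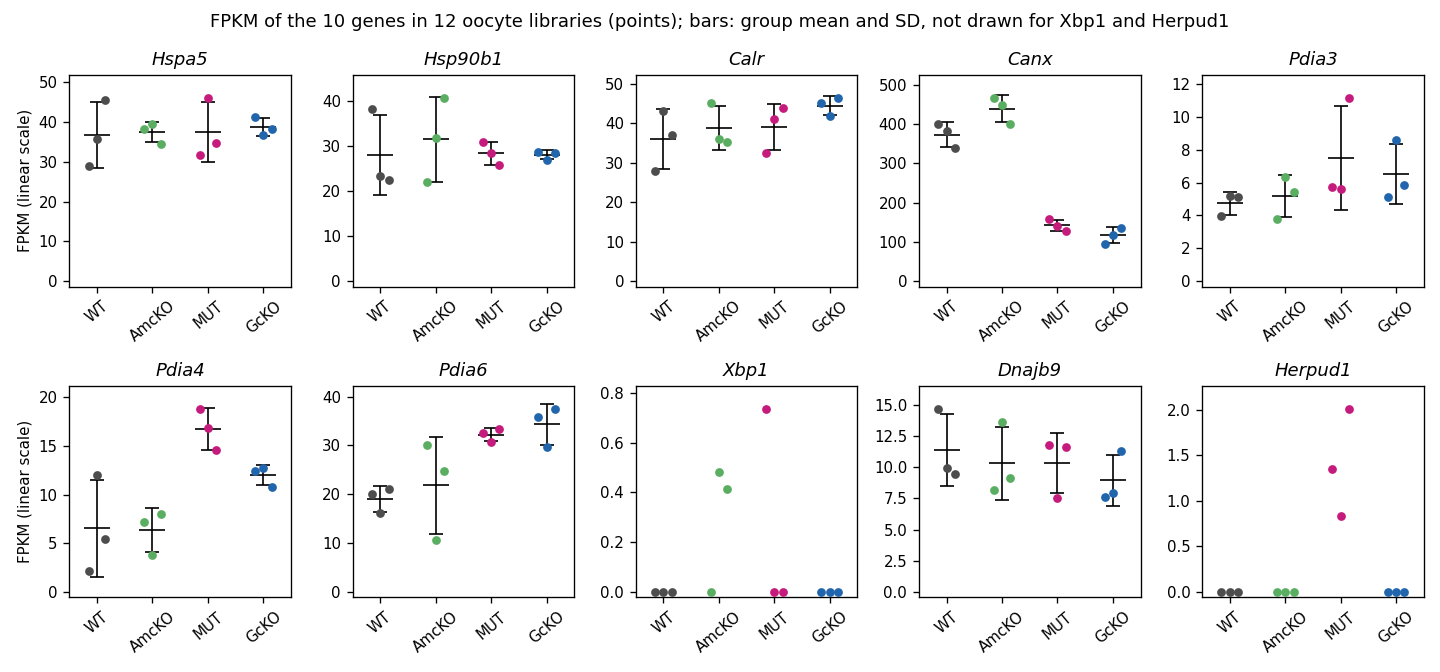
FPKM (linear axis) of each of the 10 genes in the 12 oocyte libraries, by group. Points are libraries, and bars give the group mean and SD of 3 libraries, except for Xbp1 and Herpud1, which were at 0 in 9 libraries each. The 6 MUT and GcKO libraries hold Canx at 95.6 to 157.5 FPKM, below the 338.3 to 467.5 FPKM of WT and AmcKO, and the Hspa5, Hsp90b1 and Calr values of the 4 groups overlap.

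Calr, the luminal partner of Canx, did not follow it. Its values were 27.9, 43.2 and 37.0 FPKM in WT, 45.3, 36.1 and 35.3 FPKM in AmcKO, 32.6, 41.0 and 43.8 FPKM in MUT and 45.1, 41.9 and 46.5 FPKM in GcKO. The 4 groups overlapped, with the GcKO libraries toward the upper end. Differences of Calr ran from 0.01 to 0.32 on the log2 scale over the 6 pairwise comparisons, and the lowest adjusted p was 0.27, for GcKO against WT (limma). The ratio of Canx to Calr within a library, which no scaling of whole libraries alters, was 14.3, 8.85 and 9.14 in WT and 10.3, 12.48 and 11.4 in AmcKO. It was 4.83, 3.44 and 2.94 in MUT and 2.12, 2.80 and 2.93 in GcKO. The 6 MUT and GcKO ratios lay below the 6 of WT and AmcKO, and a two-sided exact permutation test gave p = 0.00216, the smallest that 6 against 6 libraries allow (adjusted p = 0.00649 over the 3 ratios compared, exact test). Ratios were chosen after Canx was seen to differ, and 3 against 3 libraries cannot go below 0.1. A shift that depends on abundance can alter the ratio, since Canx was far more abundant than Calr. In MUT against WT, quantile normalization put Canx at -0.72 and Calr at 0.34, and the loess correction at -0.71 and 0.35. The deposited values gave -1.39 and 0.13. Canx made up 69.8 to 74.7% of the summed FPKM of the 10 genes in the WT libraries and 71.7 to 76.0% in AmcKO, against 42.1 to 48.7% in MUT and 35.2 to 43.3% in GcKO.

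**Figure D2:**
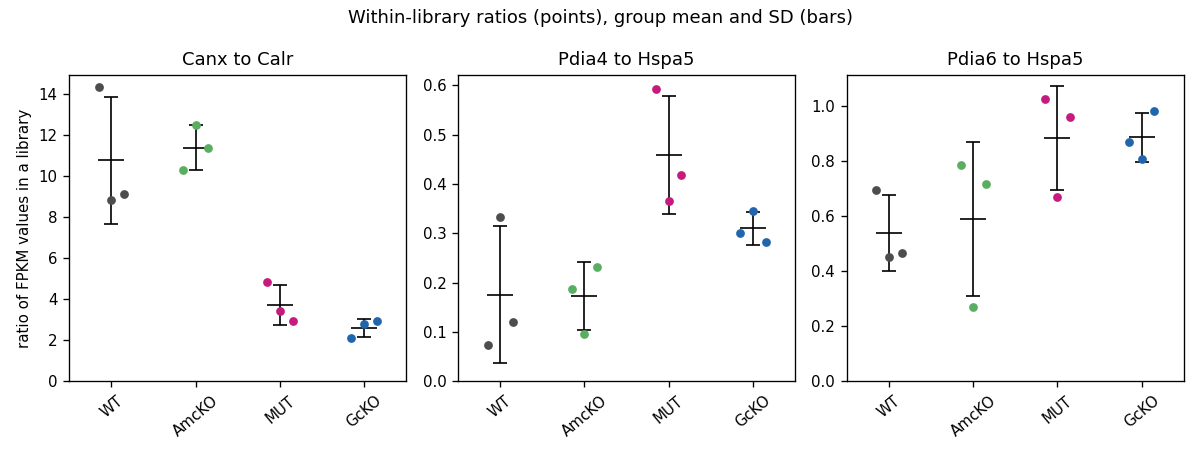
Ratio of 2 FPKM values within each library (linear axis), for Canx to Calr, Pdia4 to Hspa5 and Pdia6 to Hspa5, by group. Points are libraries and bars give the mean and SD of 3. Canx to Calr is 2.12 to 4.83 in MUT and GcKO and 8.85 to 14.3 in WT and AmcKO, whereas the other ratios overlap between these pools.

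Hspa5 and Hsp90b1, the ER members of the Hsp70 and Hsp90 families and the usual first readout of ER stress, gave no call on the deposited scale. Hspa5 was at 28.9, 35.9 and 45.5 FPKM in WT, 31.7, 46.1 and 34.8 FPKM in MUT, 41.2, 36.8 and 38.3 FPKM in GcKO and 38.3, 39.5 and 34.5 FPKM in AmcKO. Every group lay inside the WT range or within 1 FPKM of its ends, and the 4 groups overlapped. Its log2 difference was 0.04 (95% interval -0.38 to 0.46, adjusted p = 0.93) in MUT against WT and 0.10 (95% interval -0.32 to 0.52, adjusted p = 0.77) in GcKO against WT. Hsp90b1 was at 38.1, 23.3 and 22.4 FPKM in WT, 30.8, 28.5 and 25.7 FPKM in MUT, 28.7, 26.8 and 28.3 FPKM in GcKO and 21.9, 31.6 and 40.6 FPKM in AmcKO. One WT and 1 AmcKO library stood highest, and MUT and GcKO fell between the WT values. Its difference was 0.06 (95% interval -0.46 to 0.57) in MUT and 0.04 (95% interval -0.48 to 0.56) in GcKO against WT.

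With each library scaled to the same FPKM sum, Hspa5, Hsp90b1 and Calr were called higher against WT in both groups. Their log2 differences were then 1.01, 1.02 and 1.10 in MUT and 1.11, 1.04 and 1.33 in GcKO, against medians of all genes of 0.68 and 0.71. None of these genes was called against WT under any other alternative, where adjusted p was at least 0.0530. The log2 differences of all 8 tested genes under 5 scalings are plotted by gene.

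**Figure D3:**
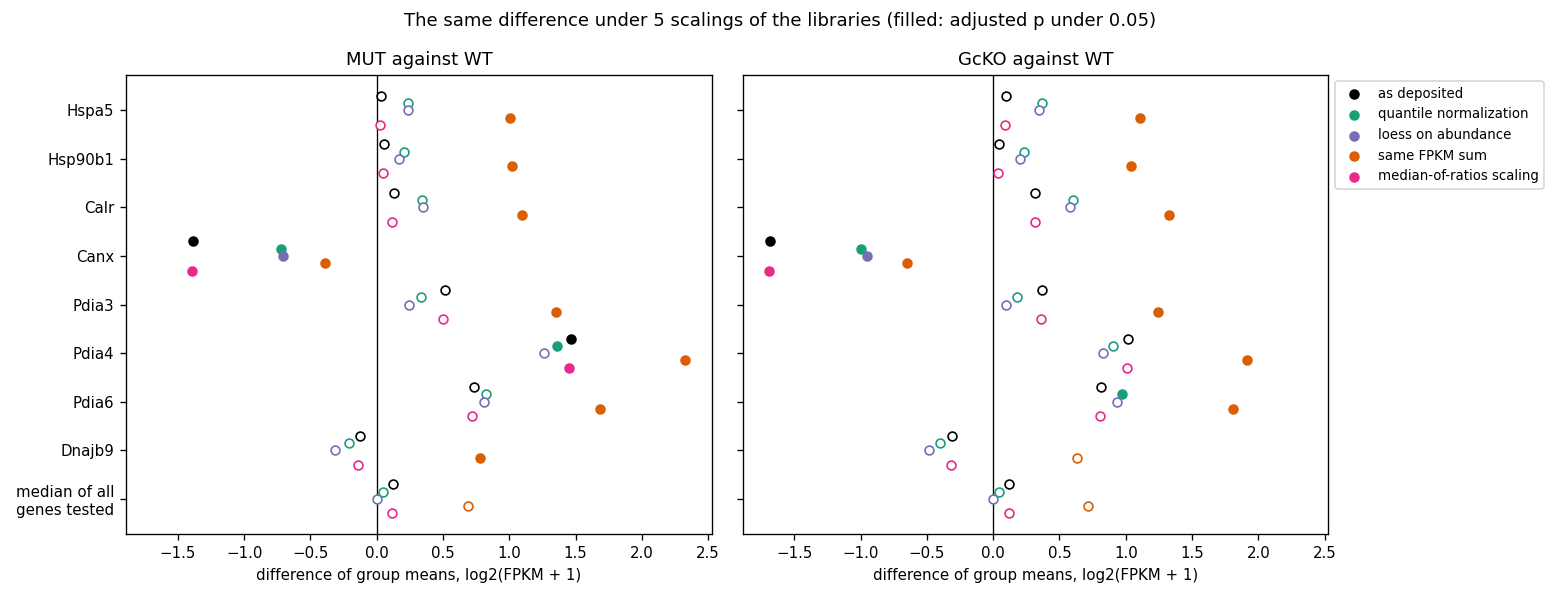
Difference of group means on the log2(FPKM + 1) scale for the 8 tested genes in MUT against WT and GcKO against WT, with the deposited values and 4 other scalings of the libraries. Filled points had an adjusted p under 0.05 in limma. Canx is negative and called under all 5 scalings in both comparisons, Dnajb9 turns from negative to positive with equal FPKM sums, and the equal-sum points lie to the right of the others for every gene, as does the median of all genes.

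Among the protein disulfide isomerases, which form and rearrange disulfide bonds, Pdia4 and Pdia6 were higher in MUT and GcKO when these were pooled, and Pdia3 gave no call. Pdia4 was at 2.12, 11.96 and 5.47 FPKM in WT and 7.21, 3.83 and 8.02 FPKM in AmcKO. It was at 18.8, 16.8 and 14.5 FPKM in MUT and 12.4, 12.7 and 10.8 FPKM in GcKO. The MUT libraries were above all others, and only WT library 5 reached into the GcKO range. These values came from few fragments, the smallest whole numbers that fit being 3, 15 and 8 in WT, 16, 9 and 22 in AmcKO, 58, 56 and 40 in MUT and 43, 47 and 24 in GcKO. The log2 difference in MUT against WT was 1.46 (SE 0.406, adjusted p = 0.0210, limma). That call was lost without WT library 4 (0.95, adjusted p = 0.0681), without MUT library 1 or 2, in a fit of the 2 groups alone and after the loess correction, over adjusted p from 0.00091 to 0.0681. In GcKO against WT it was 1.02 (adjusted p = 0.0924), and without WT library 5 it was 1.53 (adjusted p = 0.0097, within a range of 0.0029 to 0.33 over 15 alternatives).

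Pdia6 was at 20.1, 16.1 and 21.1 FPKM in WT and 30.02, 10.6 and 24.8 FPKM in AmcKO, against 32.5, 30.8 and 33.3 FPKM in MUT and 35.8, 29.6 and 37.6 FPKM in GcKO. Neither MUT nor GcKO overlapped WT, and the highest AmcKO library reached into the GcKO values. The log2 difference was 0.73 (SE 0.290, adjusted p = 0.0911) in MUT and 0.81 (adjusted p = 0.0631) in GcKO against WT, neither of them a call in the limma fit. Both were called in a fit of the 2 groups alone (adjusted p = 0.0185 and 0.0321) and with equal FPKM sums, and GcKO also with quantile normalization and with a mean FPKM of at least 5, over adjusted p from 0.0014 to 0.21 in MUT and from 8.8e-04 to 0.16 in GcKO. Pdia3, the isomerase that works with calnexin and calreticulin, was at 3.94, 5.20 and 5.10 FPKM in WT, 3.77, 6.33 and 5.43 FPKM in AmcKO, 5.75, 5.59 and 11.2 FPKM in MUT and 5.12, 8.57 and 5.88 FPKM in GcKO. The high mean of MUT rested on 1 library. Its differences from WT were 0.51 (95% interval -0.14 to 1.16) in MUT and 0.37 (95% interval -0.28 to 1.02) in GcKO.

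MUT and GcKO, the groups with the Dpagt1 defect in the oocyte, were also set against WT and AmcKO in a contrast of the same fit that was added after seeing the data. It called 3 of the 8 genes, where 24.1% of all genes tested were called. Canx was lower by a log2 difference of -1.65 (SE 0.111, adjusted p = 1.8e-06). Pdia4 was higher by 1.17 (SE 0.287, adjusted p = 0.0092) and Pdia6 by 0.74 (SE 0.205, adjusted p = 0.0185), and both were called under all 20 alternatives of that contrast. The ratio of Pdia4 to Hspa5 was 0.282 to 0.594 in the 6 MUT and GcKO libraries and 0.0731 to 0.334 in the 6 others (two-sided exact permutation p = 0.00649, adjusted over 3 ratios 0.00974). The ratio of Pdia6 to Hspa5 was 0.668 to 1.02 against 0.270 to 0.784 (exact permutation p = 0.0130, adjusted 0.0130). The genes of these ratios and the pools were chosen after the same values were seen. The adjustment does not cover that choice, and these p-values add no separate support to the calls above.

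Herpud1, a membrane protein that links the ER degradation machinery, was at 1.35, 0.833 and 2.01 FPKM in the MUT libraries and was listed at 0 in the other 9. The MUT values correspond to 3, 2 and 4 fragments. A count of 0 in a single library allows up to 3 fragments. That would have been 2.85 to 3.32 FPKM in WT, 1.13 to 1.87 FPKM in GcKO and 1.51 to 1.87 FPKM in AmcKO. Taken 1 library at a time, the MUT values could have been missed in WT. Only the highest MUT library, at 2.01 FPKM, exceeded what the zero of every single GcKO and AmcKO library allows. The 3 zeros of a group together allow less than a single zero, and that limit was not worked out. A listed 0 may also be a failed estimate, and no fold and no test are given.

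Xbp1 was at or near the limit of detection in every group. It was listed at 0 in 9 libraries, at 0.737 FPKM in MUT library 1 and at 0.483 and 0.414 FPKM in AmcKO libraries 5 and 6. These values correspond to 2 fragments in the first and 1 fragment in each of the others. In a single WT library, where a count of 0 allows up to 3 fragments, an Xbp1 level of up to 2.34 to 2.73 FPKM could have been missed. The 3 zeros of WT were not combined, and together they allow less. These limits cover counting error only. Dnajb9, the BiP co-chaperone also called ERdj4, was at 14.7, 9.98 and 9.50 FPKM in WT, 11.7, 7.55 and 11.7 FPKM in MUT, 7.65, 7.92 and 11.3 FPKM in GcKO and 8.16, 13.6 and 9.16 FPKM in AmcKO. The 4 groups overlapped. Its difference from WT was -0.13 (95% interval -0.71 to 0.45) in MUT and -0.31 (95% interval -0.89 to 0.27) in GcKO, and with equal FPKM sums these turned to 0.78 (adjusted p = 0.0292) and 0.63 (adjusted p = 0.0670), near the medians of all genes.

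**Figure D4:**
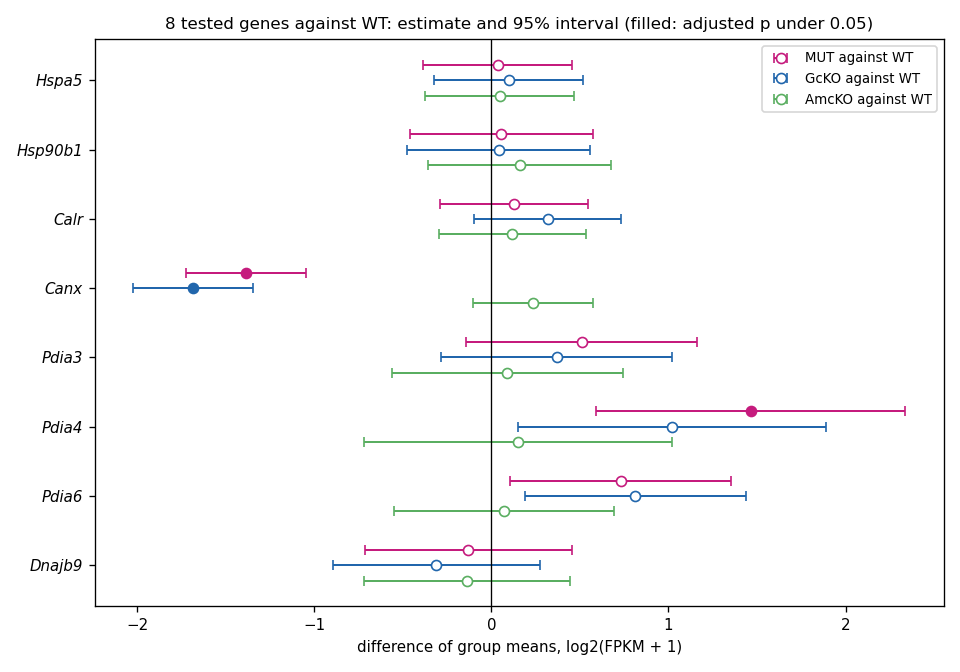
Difference of each group from WT on the log2(FPKM + 1) scale for the 8 tested genes, from the deposited values, with 95% intervals (limma, 3 libraries a group). Filled points had an adjusted p under 0.05. Canx is lower in MUT and GcKO, Pdia4 is higher in MUT, and no AmcKO point is filled. With equal FPKM sums 8 genes were called in MUT and 7 in GcKO. Of all genes, 39.7% and 40.8% were then called higher and 2.11% and 2.02% lower.

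Counted over the list, 2 of the 8 tested genes were called in MUT against WT, where 20.8% of all genes tested were called. Of these, 1 was higher (Pdia4) and 1 lower (Canx), beside 9.46% and 11.3% of all genes. In GcKO against WT 1 was called, Canx, against 20.2% of all genes. MUT against AmcKO called 1, Canx, against 6.49% of all genes, and GcKO against AmcKO called 1, Canx, against 5.46%. Without regard to the test, MUT and WT libraries did not overlap for 3 genes that were higher (Pdia3, Pdia4 and Pdia6) and 1 that was lower, beside 20.2% and 16.9% of all genes. GcKO and WT did not overlap for 1 higher (Pdia6) and 1 lower, beside 18.2% and 16% of all genes. AmcKO and WT did not overlap for 1 higher, Canx, beside 9.22%. No member was called in AmcKO against WT, where limma called 0.214% of all genes and 0 of the 8 had an unadjusted p under 0.05. None was called in GcKO against MUT either, where 0.205% of all genes were called and 0 of the 8 had an unadjusted p under 0.05. With equal FPKM sums 8 genes were called in MUT against WT, 7 of them higher and 1 lower, beside 39.7% and 2.11% of all genes. In GcKO against WT that scaling called 7, of which 6 were higher and 1 lower, beside 40.8% and 2.02%. The median log2 difference of the 8 genes was 0.09 in MUT against WT and 0.21 in GcKO against WT, beside 0.12 over all genes tested in both. The shares of all genes include 1760 genes that reached 1 FPKM only in MUT and GcKO or only in WT and AmcKO. All 8 tested genes averaged at least 5 FPKM over the 12 libraries, and genes at that level were called more often. In a fit of the 4759 genes at that level, 760 were higher and 1362 lower in MUT against WT. In GcKO against WT 705 were higher and 1397 lower. The members gave 1 higher and 1 lower in each. MUT and GcKO were compared with the same WT libraries, so their values are given side by side only.

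The levels themselves spanned a wide range. In the WT libraries Canx averaged 374 FPKM, followed by Hspa5 at 36.8, Calr at 36.0, Hsp90b1 at 27.96, Pdia6 at 19.1, Dnajb9 at 11.4, Pdia4 at 6.52 and Pdia3 at 4.75 FPKM. Hspa5, Calr and Hsp90b1 were within each other's spread there (SD 8.29, 7.66 and 8.81 FPKM), as were Dnajb9 and Pdia4 (SD 2.88 and 5.01 FPKM). The order of Dnajb9 and Pdia4 was the same in AmcKO (10.3 and 6.35 FPKM), while in MUT and GcKO every Pdia4 value but 1 exceeded every Dnajb9 value of its group. Hspa5 varied least, with a coefficient of variation of 13.5% over the 12 libraries, and Canx most among the 8 genes above 0 throughout, at 55.5%. The 10 genes lie on 6 chromosomes, Canx and Xbp1 both on chr11 (50293961 to 50325673 and 5520659 to 5525893 in GRCm38), Calr and Herpud1 on chr8, Hspa5 and Pdia3 on chr2, and Pdia6 and Dnajb9 on chr12.

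The genes whose pattern was most like that of Hspa5, by Pearson's r of log2(FPKM + 1) over 12 libraries among 4759 genes with a mean of at least 5 FPKM, were Tmod3 (0.837), Svip (0.803), Sin3b (0.768), Dlgap5 (0.764) and Tdp1 (0.750). None of them was a chaperone of the lists used here. For Xbp1, with 9 zeros, the likeness rests on 3 libraries and its highest value was 0.746, for Uqcc1. The Canx pattern, added after its values were seen, was shared by Paip1 (0.994), Tmf1 (0.985), Actr2 (0.981), Ssna1 (0.980) and Med27 (0.979). All of these values share the library totals, which differ between the groups.

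Other genes of the same pathways were counted from 5 wider lists. Genes that reached 1 FPKM only in MUT and GcKO, or only in WT and AmcKO, were kept out of the counts, for the reason given for Herpud1. Each count is read beside the share of all genes tested, which was 9.46% higher and 11.3% lower in MUT against WT and 8.71% higher and 11.4% lower in GcKO against WT. Scaled to equal FPKM sums, 39.7% and 40.8% of all genes were higher. Of 24 further ER chaperones and folding enzymes, 20 were tested. In MUT against WT 5 were higher and 2 lower, and in GcKO against WT 3 were higher and 1 lower. P4hb, the archetypal disulfide isomerase, was at 5.50, 3.89 and 7.33 FPKM in WT, 15.8, 21.4 and 14.5 FPKM in MUT and 19.2, 12.9 and 12.7 FPKM in GcKO. It rose by 1.49 (adjusted p = 0.0011) in MUT and 1.29 (adjusted p = 0.0028) in GcKO on the log2 scale (limma), and AmcKO was also high, at 12.7, 14.5 and 13.5 FPKM (1.18, adjusted p = 0.0684). Txndc5, another isomerase, rose by 1.00 (adjusted p = 0.0104) and 1.29 (adjusted p = 0.0023), with 0.84 (adjusted p = 0.15) in AmcKO. Dnajb11, a BiP co-chaperone, rose by 1.50 in MUT (adjusted p = 0.0050) and was at 0.84 in GcKO (adjusted p = 0.0815), with 0.65 (adjusted p = 0.35) in AmcKO. With equal FPKM sums 13 of the 20 were called higher and none lower in each comparison.

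In the glycoprotein folding cycle 6 of 9 genes were tested, with no call in MUT against WT and 3 higher in GcKO against WT, a count that fell to 1 with quantile normalization and with the loess correction. With equal FPKM sums, where 7 passed the filter, 4 were higher in each comparison. The 3 on the deposited scale were Ganab (1.27, adjusted p = 0.0231), a subunit of the glucosidase that trims glycans for calnexin binding, and Edem2 (1.10, adjusted p = 0.0108) and Edem3 (1.11, adjusted p = 0.0183), which direct misfolded glycoproteins to degradation. AmcKO against WT stood at 0.76 for Ganab, 0.53 for Edem2 and 0.78 for Edem3, with no call. GcKO against AmcKO gave no call in this list either. In WT, Edem3 was at only 0.247, 0.279 and 0.240 FPKM, under the 1 FPKM of the filter. GcKO against MUT gave no call in this list, so a difference between the mutants was not shown. Of the UPR sensors and their processing enzymes 6 of 8 were tested and none was called in MUT or GcKO against WT, while with equal FPKM sums 4 were higher in MUT and 5 in GcKO. Ern1, which encodes IRE1, was at 2.10, 1.43 and 1.22 FPKM in WT, 3.09, 4.46 and 1.08 FPKM in MUT and 2.59, 4.51 and 1.34 FPKM in GcKO, with overlapping groups. Of the ER-associated degradation genes 17 of 21 were tested, 2 higher in MUT and 3 higher in GcKO against WT and none lower, and with equal FPKM sums 13 and 12 of 18 were higher. Sel1l, the partner of the ER ubiquitin ligase Hrd1, rose by 1.14 in GcKO (adjusted p = 0.0113) and was at 0.84 in MUT (adjusted p = 0.0501). Nploc4, a cofactor that extracts substrates, rose by 1.21 in GcKO (adjusted p = 0.0351). GcKO against AmcKO gave no call for Sel1l (adjusted p = 0.12) or for Nploc4 (adjusted p = 0.081, limma).

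The PERK and ATF4 branch, the arm of the response that does not run through Xbp1, had 6 of 12 genes tested, with 2 higher in MUT against WT and 1 higher and 1 lower in GcKO against WT. With equal FPKM sums 4 were higher in MUT and 2 in GcKO, and the lower call in GcKO was lost there, with quantile normalization and with the loess correction. Atf4, its transcription factor, was at 15.9, 33.0 and 20.5 FPKM in WT, 96.2, 101.7 and 121.9 FPKM in MUT and 72.5, 45.5 and 28.1 FPKM in GcKO. Against WT it was higher by 2.21 (adjusted p = 4.1e-04) in MUT and by 1.00 (adjusted p = 0.0413) in GcKO (limma). AmcKO was at 29.8, 23.4 and 39.5 FPKM, and the GcKO values overlapped those of WT and AmcKO. Against AmcKO, MUT was higher by 1.78 (adjusted p = 0.0053), and GcKO gave 0.57 with no call (adjusted p = 0.37, limma). Chac1, an enzyme that breaks down glutathione, was at 0, 1.36 and 0 FPKM in WT and at 2.22, 4.13 and 6.23 FPKM in MUT, a rise of 1.89 (adjusted p = 0.0079). Ddit3, the transcription factor CHOP, was at 315.6, 353.2 and 500.8 FPKM in WT and at 144.9, 201.8 and 258.2 FPKM in GcKO, a log2 difference of -0.96 (adjusted p = 0.0123). Among the genes of 134 to 536 FPKM described beside Canx, 67.3% were called lower in GcKO against WT, with a median of -0.81. Ddit3 was at 381.9, 387.3 and 319.0 FPKM in MUT (-0.08 against WT, adjusted p = 0.85). AmcKO had 298.8, 418.3 and 249.1 FPKM, and GcKO against AmcKO gave -0.68 with no call (adjusted p = 0.13, limma). Fgf21, a secreted hormone, was listed at 0 in all WT and AmcKO libraries and was at 73.6, 49.3 and 77.2 FPKM in MUT and at 1.89, 0 and 0 FPKM in GcKO. Asns, asparagine synthetase, was at 3.89, 6.02 and 4.85 FPKM in MUT, at 0.771, 0.722 and 0 FPKM in GcKO, at 0.601, 0 and 0 FPKM in AmcKO and at 0 in WT. Nupr1 was at 2.04, 1.97 and 4.67 FPKM in MUT and listed at 0 in the other 9 libraries. Fgf21, Asns and Nupr1 passed the filter only through the groups where they were high and were not tested.

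**Figure D5:**
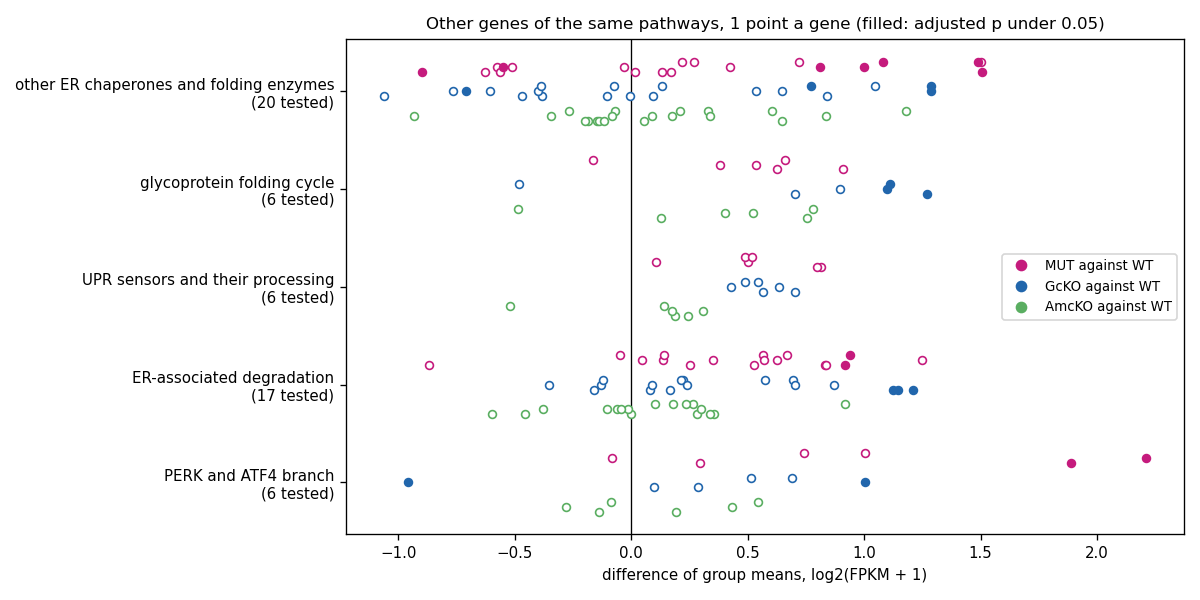
Difference from WT on the log2(FPKM + 1) scale of the tested genes in 5 wider lists, 1 point a gene, with MUT, GcKO and AmcKO in separate bands. Filled points had an adjusted p under 0.05 (limma, deposited values). The farthest point to the right is Atf4 in MUT, at 2.21, and no AmcKO point is filled. With equal FPKM sums 13 instead of 5 of the 20 other chaperones were called higher in MUT, beside 39.7% instead of 9.46% of all genes.

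Over all genes, 18 tested genes had an ERSE in their window. Of these 2 were higher and 2 lower in MUT against WT, where 9.46% and 11.3% of all genes were, and 2 were higher and 4 lower in GcKO against WT, where 8.71% and 11.4% were. At this number of genes nothing is read from these counts. Hspa5 and Canx, whose elements are printed above, lay 65 and 145 bases before the start site at their first letter. Hspa5 was at 0.04 and Canx at -1.39 in MUT against WT, on the log2 scale.

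The labelled cell type was checked against markers. All 13 oocyte markers were present in every group, but not at the same level. They summed to 51184 to 56926 FPKM in WT, 40488 to 50817 in AmcKO, 22136 to 23246 in MUT and 19809 to 27826 in GcKO. In MUT against WT 6 were called lower (Zp2, Zp3, Ooep, Oosp1, Dppa3 and H1foo), beside 11.3% of all genes, and 1 higher (Zar1), beside 9.46%. Of 15 granulosa and cumulus markers, Amh, Foxl2, Amhr2, Npr2 and Ptx3 were at 0 in all 12 libraries. The 15 summed to 17.6 to 23.1 FPKM in WT, to 11.8 to 22.7 FPKM in AmcKO, to 17.8 to 31.6 FPKM in MUT and to 14.7 to 29.3 FPKM in GcKO. Cyp19a1, the most abundant of them, was at 17.1, 20.1 and 15.1 FPKM in WT, 8.88, 9.49 and 13.4 FPKM in MUT, 6.70, 10.5 and 20.9 FPKM in GcKO and 10.9, 19.2 and 9.97 FPKM in AmcKO. Fshr and Kitl reached 1.49 and 1.51 FPKM in WT and stayed under 1 FPKM in MUT. Inha, Hsd17b1 and Gja1 were at 0 in WT and went the other way, with Inha at 5.44, 1.13 and 5.44 FPKM in MUT, and were not tested, since they passed the filter only through MUT and GcKO. None of the tested markers of this list was called in MUT against WT. The higher Herpud1 and Pdia4 values in MUT came with more Inha, Hsd17b1 and Gja1 and less Cyp19a1, and the part of these cells in them was not tested. Of 10 theca, stroma, blood and immune markers, 7 were at 0 in all libraries, and the sum was 2.60 to 6.77 FPKM over the 12 libraries.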

How the data were processed

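RNA was amplified from 20 oocytes per library by the Smart-seq2 procedure and sequenced as paired ends. Per the labels, reads were aligned to mm10 with TopHat2 (2.0.13), and the authors computed FPKM with Cufflinks (2.2.1), with Cuffnorm and Cuffdiff also named. The gene annotation was not given in the sources used here. The deposited table holds FPKM of 12 libraries, along with the authors' fold changes and p-values of 6 comparisons, which were not used. It holds no counts, so total depth is unknown. No 2 libraries held identical values.

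FPKM was fitted as log2(FPKM + 1) with limma (3.58.1, variance trend, R 4.3.3) over all 12 libraries in 1 model. Genes with at least 1 FPKM in at least 1 library were tested, and an adjusted p under 0.05 (Benjamini-Hochberg over 11233 genes) was a call. Genes that reached that level only in MUT and GcKO, or only in WT and AmcKO, stayed in the fit and were kept out of the members' and lists' counts and given no test, a rule added after the values were seen. Fold changes on this scale understate those of low genes. The study's rule, a Cuffdiff q under 0.05 with a fold over 2, needs the reads, and its fold limit was tried as an alternative. Other pseudocounts, filters, scalings, variance models, sample sets and left-out libraries were tried too. On simulated data for MUT against WT the model recovered 49 of 100 2-fold changes and 94 of 100 4-fold changes. It called 8 of 11033 unchanged genes. A missing call therefore does not exclude a 2-fold change.

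The FPKM of 1 fragment in each library, relative to MUT library 2, was taken from ratios of low values. Of 4005 genes above 0 in all libraries and under 20 FPKM, 3015 were whole multiples of it within 0.2, and fragment numbers are the smallest that fit. Promoter windows came from RefSeq (GRCm38.p6), where all 10 genes matched, and gene positions from GENCODE (GRCm38, the same build as mm10).

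All 10 genes are named with their values. From each wider list the 3 genes of largest absolute log2 difference among those tested and called in MUT or GcKO against WT are named, except 1 that is not reported here. Ern1, the granulosa markers, Fgf21, Asns and Nupr1 were named after their values were seen. The genes and the lists were chosen with earlier results of these data known. Of the list genes, Hm13 was not matched in the table.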

Additional observations from a re-analysis of the deposited data

Results flagged for a closer look

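The effect of MUT or GcKO on a gene differed from that of AmcKO in 2 cases, both of them Canx, by a direct contrast of the groups in the limma fit (Benjamini-Hochberg adjustment, 3 libraries a group). Canx was lower in GcKO than in AmcKO by a log2 difference of -1.92 (adjusted p = 4.9e-05), with all 3 GcKO libraries below all 3 AmcKO libraries. It was lower in MUT than in AmcKO by a log2 difference of -1.62 (adjusted p = 9.1e-05), again without overlap. Both calls held under each of 15 alternatives.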

How the results depend on the processing

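The limits of these results are the small fragment numbers of Pdia3, Pdia4, Dnajb9, Herpud1 and Xbp1, the zeros, and the unequal FPKM sums of the groups. Of 896 alternative values of the 8 tested genes, 793 kept direction and side of the threshold, 29 gained a call, 5 lost one and 69 changed sign, 65 of the 69 without a call in either setting.

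With equal FPKM sums, counts of called genes became 8 in MUT against WT, 7 in GcKO against WT, 5 in GcKO against AmcKO, 6 in MUT against AmcKO and 8 in the contrast of MUT and GcKO with WT and AmcKO. Over all 11755 genes tested with that scaling, 4667 were higher and 248 lower in MUT against WT, and 4796 and 237 in GcKO against WT. The numbers were 2430 and 127 in GcKO against AmcKO, 2363 and 163 in MUT against AmcKO, and 5794 and 253 in the contrast of pools. GcKO against WT called 2 genes, Canx and Pdia6, with a mean FPKM of at least 5, with quantile normalization and in a fit of the 2 groups. Over all genes these settings called 705 higher and 1397 lower of 4759, 704 and 663 of 11233, and 504 and 1090 of 10491. MUT against AmcKO called 2, Canx and Pdia4, with a mean FPKM of at least 5 and in a fit of the 2 groups. Over all genes these called 217 higher and 756 lower of 4759, and 204 and 639 of 10389. MUT against WT called 1, Canx, after the loess correction, and in a fit of the 2 groups it called 2 that were Canx and Pdia6 in place of Canx and Pdia4. Over all genes these called 705 higher and 846 lower of 11233, and 806 and 1329 of 10525. A fold over 2 left 2 calls, Canx and Pdia4, in the contrast of pools, beside 285 higher and 446 lower of 11233 genes. Leaving out each library in turn gave 1 to 2 calls in MUT against WT and 1 to 2 in GcKO against WT, and changed no other count. MUT against WT called 1, Canx, without WT library 4, without MUT library 1 and without MUT library 2, and GcKO against WT called 2, Canx and Pdia4, without WT library 5. AmcKO against WT and GcKO against MUT called 0 under all 17 alternatives of each.

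Signs turned with equal FPKM sums, quantile normalization or the loess correction, in this order where several are given. Hspa5 in MUT against AmcKO went to 0.67, 0.10 and 0.12. Hsp90b1 went to 0.026, 0.026 and 0.029 in GcKO against MUT, to 0.60, 0.0099 and 0.0006 in GcKO against AmcKO, to 0.81, 0.11 and 0.086 in the contrast of pools, and to 0.57 (equal sums) in MUT against AmcKO. Dnajb9 with equal sums went to 0.78 in MUT, 0.63 in GcKO and 0.13 in AmcKO against WT, to 0.50 in GcKO against AmcKO and to 0.64 in the contrast of pools; in MUT against AmcKO it went to -0.056 (quantile) and -0.090 (loess). Pdia3 in AmcKO against WT went to -0.027 (loess). The causes were not tested.

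Leaving out single libraries gave these log2 ranges where a sign turned. Against WT, Hspa5 ranged from -0.12 to 0.20 for MUT, from -0.058 to 0.26 for GcKO and from -0.11 to 0.21 for AmcKO. It ranged from -0.047 to 0.22 in GcKO against MUT, -0.0049 to 0.089 in GcKO against AmcKO, -0.16 to 0.098 in MUT against AmcKO and -0.035 to 0.12 in the contrast of pools. Hsp90b1 ranged from -0.076 to 0.29, -0.091 to 0.28 and -0.041 to 0.40 in MUT, GcKO and AmcKO against WT. It ranged from -0.080 to 0.045 in GcKO against MUT, -0.35 to 0.083 in GcKO against AmcKO, -0.33 to 0.097 in MUT against AmcKO and -0.15 to 0.087 in the contrast of pools. Calr ranged from -0.040 to 0.27 in MUT and -0.049 to 0.26 in AmcKO against WT, and from -0.076 to 0.13 in MUT against AmcKO. Pdia3 ranged from -0.045 to 0.26 in AmcKO against WT and -0.33 to 0.15 in GcKO against MUT. In AmcKO against WT, Pdia4 ranged from -0.37 to 0.66, Pdia6 from -0.21 to 0.50 and Dnajb9 from -0.34 to 0.047. Dnajb9 ranged from -0.24 to 0.060 in MUT against WT, -0.34 to 0.027 in GcKO against AmcKO and -0.13 to 0.21 in MUT against AmcKO.

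MUT and GcKO share the replicate numbers 1 to 3 and WT and AmcKO the numbers 4 to 6. This split of the numbers is the same as that of the contrast of pools, so their parts in the differences cannot be told apart. Deviations from the group means correlated at -0.057 to 0.071 over all pairs of libraries and at -0.041 to 0.041 for equal numbers, so the numbers did not pair the samples. With the replicate block 0 members were called in GcKO against MUT and 0 in AmcKO against WT, as without it, and the calls over all genes were 25 and 7, against 26 and 8 in the same fit without the block.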
